A study of Rattus norvegicus with 6 samples.

Results

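The subject is a block of 292 rat mature miRNA probe sets whose miRBase accession numbers begin with MIMAT0017, out of 728 mature probe sets on the arrays. The rule takes members by accession number and leaves out 3 accessions of the same block (miR-326-5p, miR-328a-5p and miR-500-5p). Those 3 are in the authors' list of differential miRNAs, so the choice was not blind to the measurements. Their comparison set was the older block of 173 probe sets whose numbers begin with MIMAT0000. Cardiac stem cells (CSCs), cultured progenitors taken from hearts of Sprague Dawley rats at an age of 4 weeks, were measured on 3 arrays after 3 days in medium with exosomes from bone marrow mesenchymal stem cells (CSC+Exo) and on 3 arrays without exosomes (CSC). The exosomes came from rat mesenchymal stem cells at passage 4 by precipitation with ExoQuick-TC, and CSCs given a vesicle-free precipitate were not analysed here. Signals are log2 values. Whether each array stands for a culture of its own is not stated, so the p-values rest on an array-to-array spread that may be technical.

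A miRNA hairpin is cut by Drosha and Dicer into a duplex with a 5p and a 3p strand. One strand is usually loaded into Argonaute and guides it to mRNAs through its seed, bases 2 to 8, while the other, once called the star strand, is mostly degraded. The preferred strand was usually named first and the opposite strand later, when small RNA sequencing had shown that many hairpins give some product from both arms. In the RefSeq annotation of assembly GRCr8, 287 of 419 rat miRNA hairpins (68.5%) carry a named mature product on each arm.

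The files pair accessions with names for 22 mature probe sets, of which 3 are members: miR-501-3p (MIMAT0017198), miR-362-3p (MIMAT0017357) and miR-702-5p (MIMAT0017884). All 22 are in the authors' list of differential miRNAs, so every named member was chosen for a difference in these data. The other 289 members are unnamed here, so the description of the block as later-named opposite arms could not be checked for them. All 3 named members have an opposite arm, but the files give its accession for miR-362-3p alone, whose opposite arm miR-362-5p has the lower number MIMAT0012828. The sequences of the named members and of their opposite arms are shown because they are the products whose values can be tied to a hairpin. Capitals mark the seed. The members and miR-362-5p are from the deposited table and miR-501-5p and miR-702-3p from RefSeq (GRCr8):
miR-501-3p: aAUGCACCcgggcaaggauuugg
miR-501-5p: aAUCCUUUgucccuggguga
miR-362-3p: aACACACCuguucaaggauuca
miR-362-5p: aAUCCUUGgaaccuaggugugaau
miR-702-5p: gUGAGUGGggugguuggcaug
miR-702-3p: uGCCCACCcuuuaccccacucca

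The RefSeq hairpins of these members show where each arm lies. Here capitals mark both mature arms, the 5p arm first, in sequences read 5′ to 3′ along the transcript:
Mir362: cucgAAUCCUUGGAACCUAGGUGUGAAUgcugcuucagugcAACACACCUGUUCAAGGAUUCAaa
Mir501: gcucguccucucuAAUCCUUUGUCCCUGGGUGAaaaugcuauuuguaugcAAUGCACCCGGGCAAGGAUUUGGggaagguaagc
Mir702: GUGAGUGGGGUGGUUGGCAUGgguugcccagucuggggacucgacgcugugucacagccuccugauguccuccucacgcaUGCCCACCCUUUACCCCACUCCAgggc
In GRCr8, Mir362 lies at chrX:17926485-17926549 and Mir501 at chrX:17927189-17927272, both on the plus strand within Clcn5, which encodes a chloride/proton exchanger of endosomes. Mir702 lies at chr12:25318495-25318601 on the minus strand within Plod3, which encodes a lysyl hydroxylase that modifies collagen. The arms are separated by 13 bases in Mir362, 17 in Mir501 and 59 in Mir702. miR-501-3p has the same seed as miR-500-3p from chromosome X (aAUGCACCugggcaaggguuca), and with both aligned at their 5′ ends 18 of 22 bases are identical. miR-362-3p has the same seed as miR-329-3p from chromosome 6 (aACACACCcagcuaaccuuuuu) and 12 of 22 bases are identical. Whether such close sequences share signal on these arrays was not tested.

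Most members were dim. The median of their mean signals over the 6 arrays was 0.50 log2, with quartiles of 0.37 and 1.05, whereas the older block had a median of 5.67 with quartiles of 1.06 and 10.23. A mean under 2 was found for 247 of the 292 members (84.6%) and for 57 of the 173 older probe sets (32.9%). A mean of at least 5 was found for 21 members (7.19%) and for 97 older probe sets (56.1%), and a mean of at least 8 for 2 members and 64 older ones. The brightest member averaged 9.51 and the brightest older probe set 13.92. Probe sets differ in how well they capture their target, so these figures describe the 2 blocks and do not rank single miRNAs. In bulk RNA, fewer cells that make a miRNA and less of it per cell cannot be told apart.

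This dimness was alike on all 6 arrays. The member median was 0.58, 0.57 and 0.56 log2 on CSC+Exo replicates 1, 2 and 3, against 0.57, 0.53 and 0.47 on CSC replicates 1, 2 and 3. Members with a signal of at least 5 numbered 21, 22 and 21 on the CSC+Exo arrays, against 20, 20 and 16 on the CSC arrays. Detection calls by the authors are given for the 22 listed miRNAs, where the lowest signal called detected was 0.82 and the highest called not detected was 1.46, so no single signal divides the calls. Of the 132 calls 126 were detected and 6 were not, on a list of differential miRNAs, so the lowest detected signal is a rough mark. The means of 199 members (68.2%) and of 36 older probe sets (20.8%) lay under that lowest detected signal.

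The accession numbers of the members form 2 runs with a gap between them, which was seen in the data and not set beforehand. The lower-numbered run held 182 members, of which 19 (10.4%) had a mean of at least 5. The higher-numbered run held 110 members, of which 2 (1.82%) did. The median difference between CSC+Exo and CSC was 0.03 log2 in the lower-numbered run and 0.06 in the higher-numbered one. The difference in brightness between the runs was not tested.

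The comparison of CSC+Exo with CSC asked which members changed in the cells after exposure to exosomes. With limma and Benjamini-Hochberg adjustment over all 728 mature probe sets, 0 of the 292 members had an adjusted p under 0.05, as was true of all 728 (0% called), and the smallest adjusted p among members was 0.248. An unadjusted p under 0.05 was found for 24 members (8.22%), against 14.6% of all mature probe sets and 32 of the older block (18.5%). This order of the blocks depended on the scaling. After quantile normalization the shares were 7.53% of members, 9.34% of all and 8.67% of the older block, and after centring each array on its bright miRNAs 24.3%, 22.4% and 16.2%, with members above the older block. With the 3 left-out accessions counted there would be 27, since all 3 had a p this small. Of the 24 members, 17 were higher and 7 lower with exosomes. These are 5.82% and 2.4% of the members, where all mature probe sets gave 12.1% higher and 2.47% lower. The split depended on the scaling too, with 10 higher and 12 lower of 22 after quantile normalization, and 1 higher and 70 lower of 71 after centring on bright miRNAs. Over all mature probe sets, 36 of 68 were higher after quantile normalization and 17 of 163 after centring on bright miRNAs. That centring moves the median difference of all mature probe sets by -0.38 log2, dim ones included. Without CSC+Exo replicates 1, 2 and 3 in turn the 24 became 14, 7 and 40, and without CSC replicate 1 they became 14. These are 4.79%, 2.4%, 13.7% and 4.79% of the members, beside 7.83%, 5.22%, 19.9% and 12.2% of all mature probe sets.

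On the deposited scale the share with an unadjusted p under 0.05 differed between ranges of brightness, and its difference between the blocks was not tested. Among probe sets with a mean between 5 and 8, it was 8 of 19 members (42.1%) and 15 of 33 older ones (45.5%), beside 48.9% of all mature probe sets in that range. Below 2 it was 12 of 247 members (4.86%) and 4 of 57 older ones (7.02%), beside 5.53% of all. Between 2 and 5 it was 4 of 24 members (16.7%) and 3 of 19 older ones (15.8%), beside 19.5% of all. Neither of the members with a mean of 8 or more was among the 24.

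A difference above 0 was found for 171 members (58.6%) and 134 older probe sets (77.5%), beside 64.4% of all mature ones. The median difference over all 292 members was 0.05 log2, beside 0.20 for the older block and 0.08 for all mature probe sets. The members under 2 had a median of 0.04 and those between 2 and 5 a median of -0.07, whereas the older probe sets between 2 and 5 had a median of 0.49. Between 5 and 8 the medians were 0.54 for the 19 members and 0.61 for the 33 older ones, and after quantile normalization 0.15 and 0.21. In that range 5 of the 19 members and 2 of the 33 older probe sets were lower with exosomes, beside 15.9% of all, and after quantile normalization 8 and 11. Between 2 and 5, 13 of 24 members and 6 of 19 older probe sets were lower, beside 40.2% of all. The difference between the blocks was not tested.

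Groups without overlap numbered 45 among the 292 members, beside 19.6% of all mature probe sets. All 3 CSC+Exo arrays lay above all 3 CSC arrays for 31 members (10.6%) and below them for 14 (4.79%), beside 15.9% and 3.71% of all mature probe sets. In the older block the 3 arrays lay above for 39 probe sets and below for 0. An unadjusted limma p under 0.05 was reached by 32 older probe sets that were higher and by 0 that were lower. After quantile normalization the counts without overlap were 21 above and 15 below among members, and 14 above and 5 below in the older block. After centring on bright miRNAs they were 2 above and 111 below among members, and 8 above and 36 below in the older block. That centring moves the median difference of all mature probe sets by -0.38 log2. Counts over all mature probe sets were not made under these scalings, so these figures are not shown to be particular to the members. The split, and the absence of lower older probe sets, depended on the scaling. Of the 31 members above, 23 had a mean under 2, which is 9.31% of the members in that range beside 8.51% of all. Of the 14 members below, 10 had a mean under 2, which is 4.05% of the members in that range beside 3.62% of all.

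Of the 21 members that averaged 5 log2 or more, 16 were higher and 5 lower with exosomes, beside 84.2% higher of all mature probe sets this bright, with differences from -1.44 to 0.86 log2 and a median of 0.54, or 1.45-fold. After quantile normalization 12 of the 21 were higher and the median was 0.14, and after centring on bright miRNAs 13 were higher and the median was 0.16. Set against the 6-array mean of each member, the median deviation was 0.25, 0.36 and 0.12 on CSC+Exo replicates 1, 2 and 3, against -0.36, 0.0003 and -0.11 on CSC replicates 1, 2 and 3. The lowest member mean that reached the limit of 5 was 5.08 and the highest that missed it 4.94. The 95% intervals of limma, not adjusted for the number of tests, had half-widths from 0.33 to 1.23 log2 with a median of 0.63. A difference beyond its half-width was not enough for a call, since several such members did not pass the adjustment.

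The brightest member, unnamed, had 9.91, 9.90 and 9.54 log2 in CSC+Exo, against 8.67, 9.66 and 9.41 in CSC. The groups overlapped, since CSC replicate 2 lay above CSC+Exo replicate 3, and the difference was 0.54 log2 with a 95% interval from -0.14 to 1.22. The second brightest had 8.61, 8.54 and 8.22 log2 in CSC+Exo, against 7.57, 7.94 and 8.34 in CSC, a difference of 0.51 with overlapping groups (interval -0.06 to 1.07). The third had 8.25, 8.26 and 7.59 log2 in CSC+Exo, against 6.59, 7.35 and 7.61 in CSC. It was 0.85 log2 higher, but CSC replicate 3 lay just above CSC+Exo replicate 3 (limma adjusted p = 0.31). In each of the 3, CSC replicate 1 was the lowest array.

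Groups did not overlap for 7 of the 21 bright members, 6 of them higher and 1 lower, beside 37.4% higher and 2.34% lower of all mature probe sets this bright. The highest-ranked of these by p was MIMAT0017041, unnamed, with 5.67, 5.64 and 5.94 log2 in CSC+Exo, against 5.12, 5.25 and 5.23 in CSC. Both groups were tight and did not overlap, with a difference of 0.55 ± 0.14 (SE) or 1.47-fold (limma adjusted p = 0.248). The difference shrank to 0.20 log2 on quantile-normalized arrays and to 0.18 on arrays centred on bright miRNAs. The sixth brightest member had 7.04, 7.31 and 6.45 log2 in CSC+Exo, against 6.19, 6.35 and 6.31 in CSC, and the ninth had 6.31, 6.34 and 6.11 in CSC+Exo, against 5.47, 5.73 and 5.94 in CSC. In both, CSC+Exo replicate 3 lay nearest to the CSC arrays, and the differences were 0.65 and 0.54 log2 (limma adjusted p = 0.31 and 0.288). The least bright of the 21 had 5.15, 5.70 and 5.46 log2 in CSC+Exo, against 4.62, 5.08 and 4.49 in CSC, a narrow separation with a difference of 0.71 log2.

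The 5 bright members with lower signals ranked 4, 8, 10, 11 and 12 by brightness, and the groups of 4 of them overlapped. The eighth had 5.59, 5.24 and 6.33 log2 in CSC+Exo, against 6.88, 6.03 and 6.03 in CSC, and the eleventh had 5.52, 5.45 and 6.13 in CSC+Exo, against 5.97, 5.94 and 6.33 in CSC. In these, as in all 5, CSC+Exo replicate 3 was the highest CSC+Exo array. The differences were -0.59 log2 for the eighth and -0.38 for the eleventh, and the median of the 5 was -0.49. Some higher members were spread widely within CSC: the sixteenth had 5.65, 6.33 and 5.51 log2 in CSC+Exo, against 6.02, 4.78 and 4.11 in CSC. It had the largest difference of the 21 that was above 0, at 0.86 log2, but its groups overlapped (limma adjusted p = 0.479).

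miR-501-3p, the 3p arm of the Clcn5 hairpin shown above, was the named member among the bright 21. Its signal was 5.74, 6.18 and 5.35 log2 in CSC+Exo, against 4.92, 4.76 and 5.02 in CSC. All CSC+Exo arrays lay above all CSC arrays, and replicate 3 was the nearest to them. The means were 5.75 ± 0.41 in CSC+Exo and 4.90 ± 0.13 in CSC (SD, n = 3 each), a difference of 0.85 ± 0.23 log2 (SE) or 1.80-fold. It did not pass the test (limma adjusted p = 0.288), and the difference was 0.52 log2 on quantile-normalized arrays. In the authors' deposited table it was called detected on all 3 arrays of each group, with a fold of 1.68 and a false discovery rate of 0.331.

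miR-362-3p had the smallest unadjusted p of the 292 members. Its signal was 3.58, 4.39 and 4.13 log2 in CSC+Exo, against 2.58, 3.00 and 1.58 in CSC. The groups did not overlap, and CSC replicate 3 was the lowest array. The means were 4.04 ± 0.41 in CSC+Exo and 2.39 ± 0.73 in CSC (SD, n = 3 each), a difference of 1.65 ± 0.40 log2 (SE) or 3.14-fold (limma adjusted p = 0.248). Leaving out single arrays gave 1.25 log2 (without CSC replicate 3) to 1.96 (without CSC replicate 2). With signals under 4 set to 4 the difference was 0.17, since CSC+Exo replicate 1 and all 3 CSC arrays lie under that floor. The authors' deposited table calls it detected on all 3 arrays of each group and gives a fold of 2.93.

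miR-362 was the one hairpin with both arms named in the files, which allowed the arms to be set side by side. Both are named only because the authors listed them as differential in these data. A change of both arms was therefore favoured by the choice and is no separate support. miR-362-5p had 7.10, 7.50 and 7.15 log2 in CSC+Exo, against 6.25, 6.70 and 6.41 in CSC. Like its opposite arm it was higher on every CSC+Exo array, by 0.80 ± 0.18 log2 (SE; limma adjusted p = 0.248). The log2 ratio of the 3p over the 5p signal was -3.52, -3.11 and -3.02 in CSC+Exo, against -3.66, -3.70 and -4.83 in CSC, so the groups did not overlap. The ratio differed by 0.85 log2, and a two-sided exact permutation test over the 10 splits of the arrays gave 0.1. That is the smallest p that 3 against 3 arrays allow, so the test could not reach 0.05 and adds nothing to the absence of overlap. Without CSC replicate 3 the difference was 0.47 log2. With signals under 4 set to 4 it was -0.63, so its sign rested on 3p signals under that level. The ratio compares changes of the probe sets, not amounts of the arms.

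miR-702-5p was the named member with a lower signal. It had 2.94, 2.75 and 3.21 log2 in CSC+Exo, against 3.65, 3.82 and 3.19 in CSC. The groups overlapped by a narrow margin, with CSC replicate 3 below CSC+Exo replicate 3. The means were 2.97 ± 0.23 in CSC+Exo and 3.55 ± 0.33 in CSC (SD, n = 3 each), a difference of -0.59 ± 0.21 log2 (SE; limma adjusted p = 0.31). Unlike those of miR-501-3p and miR-362-3p, its difference was larger in size after quantile normalization, at -0.69, and after centring on bright miRNAs, at -0.97. Both scalings move the median difference of all mature probe sets down, by -0.07 and -0.38 log2. All its signals lay under 4, although the authors' deposited table calls it detected on all 3 arrays of each group, with a fold of 0.62.

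Of the lower unnamed members, MIMAT0017091 and MIMAT0017319 had the smallest p. MIMAT0017319 had 4.93, 4.43 and 6.19 log2 in CSC+Exo, against 6.97, 6.33 and 6.58 in CSC, so the groups did not overlap but CSC+Exo replicate 3 lay close to the CSC arrays. Its difference of -1.44 ± 0.46 log2 (SE) had a limma adjusted p of 0.288, which was 0.0318 without CSC+Exo replicate 3. MIMAT0017091 was dim, with 1.13, 1.14 and 1.30 in CSC+Exo, against 1.86, 1.46 and 1.69 in CSC, a difference of -0.48 ± 0.15 (SE; adjusted p = 0.288). As for miR-702-5p, the differences of MIMAT0017319 and MIMAT0017091 were larger in size after quantile normalization, at -1.87 and -0.50. After centring on bright miRNAs they were -1.82 and -0.85. Among higher unnamed members the dim MIMAT0017127 followed MIMAT0017041, with 1.38, 1.31 and 0.92 in CSC+Exo, against 0.72, 0.68 and 0.42 in CSC. It differed by 0.59 ± 0.18 log2 (SE; limma adjusted p = 0.288), and its groups did not overlap.

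CSC+Exo replicate 3 stood apart from the other CSC+Exo arrays in many members. For 13 of the 21 bright members (61.9%) its signal was nearer to the CSC mean than to the mean of CSC+Exo replicates 1 and 2, beside 57 of 97 bright older probe sets (58.8%). Over all mature probe sets this bright the share was 57.9%. Counted in the same way, the number was 4 for CSC+Exo replicate 1 and 2 for replicate 2 among the members. CSC replicates 1, 2 and 3 were nearer to the CSC+Exo mean than to the other CSC arrays for 5, 8 and 8 of the 21. Yet CSC+Exo replicate 3 lay above the 6-array mean for 17 of the 21, against 14 for each of CSC+Exo replicates 1 and 2. Among the 97 bright older probe sets the number was 47, against 87 and 88. Over all 171 mature probe sets this bright it was 93, against 143 and 147. Without CSC+Exo replicate 3, limma gave 5 members an adjusted p under 0.05, 1 higher and 4 lower, out of 23 of all 728 (3.16%). Their differences were then between -2.20 and 2.04 log2, with adjusted p from 0.0147 to 0.0458. Only MIMAT0017319 among these 5 had a mean of at least 5. Leaving out any other array gave 0 members, and the part of this array in the results was not tested further.

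Large differences among members went with a wide spread. A difference of at least 1 log2 in size was found for 10 members, 5 higher and 5 lower, and 8 of them had a mean between 2 and 5. All mature probe sets gave 5.08% of this size. An unadjusted p was under 0.05 for 3 of the 10, and 3 had groups that did not overlap. The matching counts for all mature probe sets with differences of this size are not given here, so these 2 counts have no background. Their pooled replicate SD ran from 0.59 to 1.54 with a median of 0.90, against a median of 0.20 for the other members. Most of those others averaged under 2, where the members' median SD was 0.19, so this contrast mixes spread with signal range. Choosing members by the size of a difference also favours a wide spread, so the contrast is a description only. In the range from 2 to 5 the median replicate SD was 0.83 for members and 0.55 for older probe sets, whereas it was 0.36 and 0.40 in the range from 5 to 8. The largest positive difference, 1.81 log2, belonged to an unnamed member with 4.81, 5.09 and 3.53 log2 in CSC+Exo, against 3.84, 3.25 and 0.91 in CSC. Its groups overlapped, and CSC replicate 3 lay far below all other arrays.

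The authors' deposited target table lists genes predicted from sequence by miRanda for the named members, without measured mRNA. It gives 138 genes for miR-501-3p, 180 for miR-362-3p and 507 for miR-702-5p. The highest-scoring site of miR-702-5p (score 179) lies in Notch1, a receptor of cell fate signalling, that of miR-362-3p (score 180) in Alg9, a mannosyltransferase of N-glycan assembly, and that of miR-501-3p (score 173) in Hspa2, a heat shock protein. These sites are shown to relate the seeds above to a target, with the stretch that miRanda aligned, mismatches included, in capitals as in the table:
Notch1: gaTGCCTGCTACCCCACTCAc
Alg9: agAATCCTTGACTCGGTGTGTg
Hspa2: ggAAGTCTTTAGCCTGGTGCATa
Each ends, before its last base, in the stretch that pairs with the miRNA seed. The overlap of predicted genes between named members was not tested. miR-501-3p and miR-702-5p shared 9 genes (6.52% of the genes of the first and 1.78% of those of the second). miR-362-3p and miR-702-5p shared 7 (3.89% and 1.38%). miR-501-3p and miR-362-3p, neighbours in Clcn5, shared 2, Nfasc and Xpo4 (1.45% of the genes of the first and 1.11% of those of the second), and 0 genes were predicted for all 3. miR-362-3p and its opposite arm miR-362-5p shared 9 genes, 5% of the 180 and 4.35% of the 207.

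Lists of opposite arms were drawn up for 14 families and cell types, among them let-7, muscle, fibroblast, endothelial, blood, epithelial and neural miRNAs. Since the 3 named members belong to none of them, the lists had 0 named members and give no counts. None of 26 marker miRNAs of heart muscle, mesenchymal, endothelial, blood, epithelial, neural and liver cells is named in the files either, so the labelled cell type could not be checked against markers.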

How the data were processed

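Biotin-labelled total RNA was hybridized to Affymetrix miRNA 4.0 arrays, per the labels' protocols and the file headers. The deposited log2 signals were used as given. RMA and detection above background are named in the headers, Expression Console and MAS5 in the submitters' processing notes, and which made the values is not settled. Normalization of this kind reduces overall gains or losses. The authors' table also holds detection calls, p-values, false discovery rates, fold ratios of geometric mean intensities and miRanda scores. Its test is not stated. For the 3 named members and miR-362-5p its signals equal the deposited values (largest difference 0), but its folds are lower than those from these signals. They are 1.68 against 1.80 for miR-501-3p and 2.93 against 3.14 for miR-362-3p. For miR-702-5p they are 0.62 against 0.66, and for miR-362-5p 1.63 against 1.74. The 2 sets of folds are therefore not on 1 scale, and the reason was not tested.

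All 728 mature probe sets were tested with limma 3.58.1 (R 4.3.3; lmFit and eBayes, no trend, not robust), CSC+Exo minus CSC, 3 arrays each, with Benjamini-Hochberg adjustment over all 728 and calls at 0.05. The fit was tested on simulated data. The simulation drew independent values without shifts of whole arrays, so it does not bear on the scaling or on a deviating array. Hairpin (490) and control (59) probe sets were left out. All 6 columns were mapped, and 0 were left unmapped. The array number limits precision, and scan dates are not given in the sources used here. Named members are those in the authors' list, and for unnamed ones at most 2 accessions per direction by p, with bright ones given by rank. The files name too few miRNAs for the planned limma fit over arm pairs, so the miR-362 ratio was tested by exact permutation. Members and lists were chosen with earlier results of these data known. Sequences and targets were handled with Python 3.11.15 and pandas 2.3.3.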

Additional observations from a re-analysis of the deposited data

How the results depend on the processing

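For the members, quantile normalization gave a median difference of 0.0046 log2 over all and 0.14 over bright ones. Centring on bright miRNAs gave -0.33 and 0.16, with 71 members (24.3%, beside 22.4% of all mature probe sets) at an unadjusted p under 0.05. Keeping means of at least 2, means of at least 5, or a floor of 4 leaves fewer, brighter members: medians were 0.22, 0.54 and 0.27, with 11, 8 and 9 members at that p. These counts are 24.4%, 38.1% and 27.3% of the members kept, beside 23.6%, 33.9% and 32% of all probe sets kept. For the older block the medians were 0.039 and -0.17 under the same scalings and 0.34, 0.32 and 0.32 under those filters, and its count was 15 after quantile normalization, 19 with means of at least 2 and 21 with means of at least 5. Leaving out single arrays gave 7 to 40 members (2.4% to 13.7%) and 12 to 41 older probe sets (6.94% to 23.7%) at an unadjusted p under 0.05. The share over all mature probe sets was then 5.22% to 19.9%. An adjusted p under 0.05 was reached by 0 to 5 members, and bright members had median differences of 0.40 to 0.63. The causes were not tested. The miR-362 ratio was -0.63 with a floor of 4. MIMAT0017319 passed at -1.94 log2 without CSC+Exo replicate 3. No named member, and no other unnamed one given by accession, changed direction or passed under any setting that tested it. With a replicate block, 24 members (8.22%, beside 15.2% of all) had an unadjusted p under 0.05 and 0 passed. Arrays of the same number deviated together at r = 0.0352, 0.324 and 0.291 for numbers 1, 2 and 3. The highest r with an array of another number was 0.243, -0.00898 and -0.0175. The labels do not say that equal numbers are pairs, so the main fit took none, and pairing was not tested. An intensity trend, robust fitting, added hairpin probe sets, centring on array medians and the 3 left-out accessions gave 21 to 30 members at an unadjusted p under 0.05 and 0 that passed. These are 7.19% to 10.3% of the members, beside 12.3% to 14.6% of all probe sets tested. Of the members, 247 averaged under 2 log2. That range includes the 6 signals called not detected, of which the highest was 1.46, and signals called detected from 0.82 up. Arm ratios over further pairs were not run, as 1 pair is named.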
